A study of Arabidopsis thaliana with 12 samples.

Results

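The 10 genes described here are nuclear genes for proteins that associate with the plastid-encoded RNA polymerase: PTAC3, PTAC6, PTAC7, PTAC10, PTAC12, PTAC14, FLN1, FLN2, TRX z and MURE. They were chosen by locus code from tables that list 38093 genes, and all 10 were present and tested in each of 3 comparisons. RNA was sequenced from Arabidopsis thaliana seedlings of the mutants gun1-1, gun4-1 and gun5-1 and of wild-type Col-0, the background of all of them, with 3 libraries per genotype and 12 in all. Every seedling, wild type included, was 5 days old and had grown on 5 µM norflurazon, a herbicide that blocks the making of carotenoids, so that plastids bleach when lit, under continuous light of 100 µE. No group without norflurazon is part of the comparisons. The source is labelled as whole seedlings, although leaf RNA is named in the study design. What each mutant allele changes is not described in the labels.

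Chloroplasts transcribe their own genome with a multi-subunit polymerase whose core, of bacterial type, is encoded by the plastid genes rpoA, rpoB, rpoC1 and rpoC2. Sigma factors from the nucleus direct it to promoters, and a set of nuclear-encoded associated proteins forms a stable shell around the core; Arabidopsis plants that lack one of these proteins are typically albino or pale. GUN5 is a subunit of magnesium chelatase, an enzyme of chlorophyll synthesis that GUN4 stimulates, and GUN1 belongs to the pentatricopeptide repeat proteins of plastids. Mutants in them keep nuclear photosynthesis genes active when plastids are damaged. The comparisons ask which of the 10 transcripts differ between each mutant and Col-0 when all grow on norflurazon.

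Stretches upstream of members are shown because PTAC7 was higher, and FLN1 and FLN2 lower, in gun1-1; they were chosen after these values were seen. They are the bases before the annotated gene start in the RefSeq copy of the TAIR10.1 genome, 5′ to 3′ on the gene's strand, which is the plus strand for all 3, and stop where another annotated gene begins. PTAC7 has 250 such bases (chr5:8277450-8277699), FLN1 has 60 (chr3:20027992-20028051) and FLN2 has 250 (chr1:26015774-26016023). Capitals mark CCAATC, or CCGAAC on either strand (GTTCGG on the other).
PTAC7: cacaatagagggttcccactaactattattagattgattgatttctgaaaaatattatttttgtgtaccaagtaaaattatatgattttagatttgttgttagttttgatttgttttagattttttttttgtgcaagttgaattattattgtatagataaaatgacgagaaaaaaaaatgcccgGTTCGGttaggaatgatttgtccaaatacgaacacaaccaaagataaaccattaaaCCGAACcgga
FLN1: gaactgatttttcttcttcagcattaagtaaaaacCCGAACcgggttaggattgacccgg
FLN2: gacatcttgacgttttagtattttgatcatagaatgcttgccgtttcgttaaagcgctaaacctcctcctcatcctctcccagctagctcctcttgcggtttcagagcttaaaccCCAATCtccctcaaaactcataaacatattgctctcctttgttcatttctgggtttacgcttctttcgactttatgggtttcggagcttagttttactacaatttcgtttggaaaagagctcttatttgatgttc

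The 250 bases before each member's start, other genes included, held few of the motifs searched on both strands. The G-box CACGTG, bound by light-signalling factors, was in 1 of 10 members (PTAC3) and in 6.5% of 27443 promoters of protein-coding genes. CCAATC was in FLN2 and MURE, 2 of 10, and in 10.2% of all promoters. GATAAG (12.3% of all promoters), the telo-box AAACCCTA (4.5%) and GGCCCA (13.7%) were in 0 of the 10. CCGAAC, added as a motif after these windows had been read and so only a description, was in PTAC3, PTAC7 and FLN1, 3 of 10, against 4.6% of all promoters. Of its carriers, PTAC7 rose and FLN1 fell in gun1-1.

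Levels are group FPKM, fragment counts scaled by transcript length and library size, one value per genotype from 3 libraries. The files give no values per library, so the spread between replicates and the depth are unknown, and no order of levels could be tested. To set the 4 genotypes side by side, each mutant was put on the Col-0 level of the gun1-1 table, since the authors scaled the tables separately. PTAC7 had the highest level of the 10 in every genotype, and MURE the lowest: 30.8 FPKM in gun1-1, 31.6 in gun4-1, 36.1 in gun5-1 and 28.9 in Col-0. PTAC7 was listed at 316.4, 217.1, 313.7 and 203.6 FPKM in the same order, 10.3, 6.86, 8.69 and 7.04 times MURE. In Col-0 the order below PTAC7 was FLN1 (76.5 FPKM), PTAC6 (72.5), FLN2 (64.1), PTAC12 (60.5), TRX z (58.3), PTAC10 (50.9), PTAC3 (45.04) and PTAC14 (31.3). FLN1 stood at rank 4 in gun1-1, 3 in gun4-1, 5 in gun5-1 and 2 in Col-0, and FLN2 at rank 6, 7, 9 and 4.

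**Figure D1:**
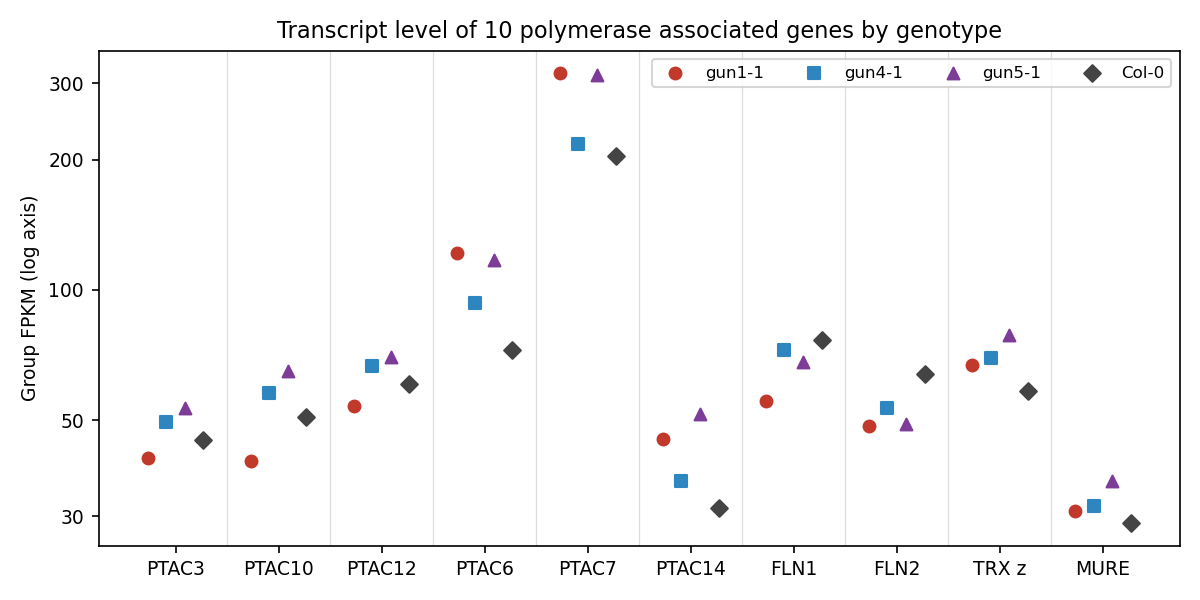
Group FPKM (log axis) of each of the 10 genes in gun1-1, gun4-1, gun5-1 and Col-0, on the Col-0 scale of the gun1-1 table; each point is 1 group value of 3 libraries, with no error available. PTAC7 lies above 200 FPKM in every genotype, and the Col-0 points of FLN1 (76.5 FPKM) and FLN2 (64.1 FPKM) are the highest of their columns.

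Changes are log2 fold changes of the mutant over Col-0 from the authors' deposited tables, called higher or lower where the authors' Cuffdiff test gave a q-value under 0.05. In gun1-1, 3 of the 10 genes were higher (PTAC6, PTAC7, PTAC14), 3 were lower (PTAC10, FLN1, FLN2) and 4 did not pass. Over all 18788 tested genes of that table, 18.7% were higher and 15.0% lower, 33.7% in all. The median change of the 10 was -0.03, against -0.02 over all tested genes, and the median size without regard to sign was 0.37, against 0.36. In gun4-1, 1 of 10 was higher (PTAC6) and 0 were lower, where 8.21% and 5.92% of 18988 genes were, 14.1% in all; 2 of the 10 had an unadjusted p under 0.05, where 26.0% of all tested genes did. In gun5-1, 6 of 10 were higher (PTAC3, PTAC6, PTAC7, PTAC10, PTAC14, MURE) and 1 was lower (FLN2), where 16.4% and 13.1% of 18542 genes were, 29.5% in all. The median changes in gun4-1 and gun5-1 were 0.14 and 0.34, against -0.003 and -0.02 over all tested genes. All comparisons use the same Col-0 libraries.

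Other call rules were set beside this one. At a q-value under 0.01 the members called numbered 6, 0 and 5 in gun1-1, gun4-1 and gun5-1, where 25.1%, 9.50% and 22.2% of all tested genes were. With p adjusted again over 1 transcript per gene they numbered 6, 1 and 8, where 35.2%, 15.3% and 31.0% of genes passed. Among genes of at least 5 FPKM they numbered 6, 2 and 8, where 43.2%, 18.7% and 38.3% passed.

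The standard errors (SE) printed here are the log2 fold change over the authors' test statistic. The error their p-value implies is used instead where it is larger and p lies above the smallest listed, 5e-05. At that smallest p the SE is from the statistic, even where it is the smaller, as for MFP1 in gun1-1 (0.18 against 0.34). Over genes of small or moderate p above it, SE from the statistic were in the median about 1.73 times those from the p-value in each table. For such genes an SE looks wide beside the authors' q. In whole seedlings, a lower level can reflect fewer cells that express a gene or less RNA per cell, which cannot be told apart here.

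**Figure D2:**
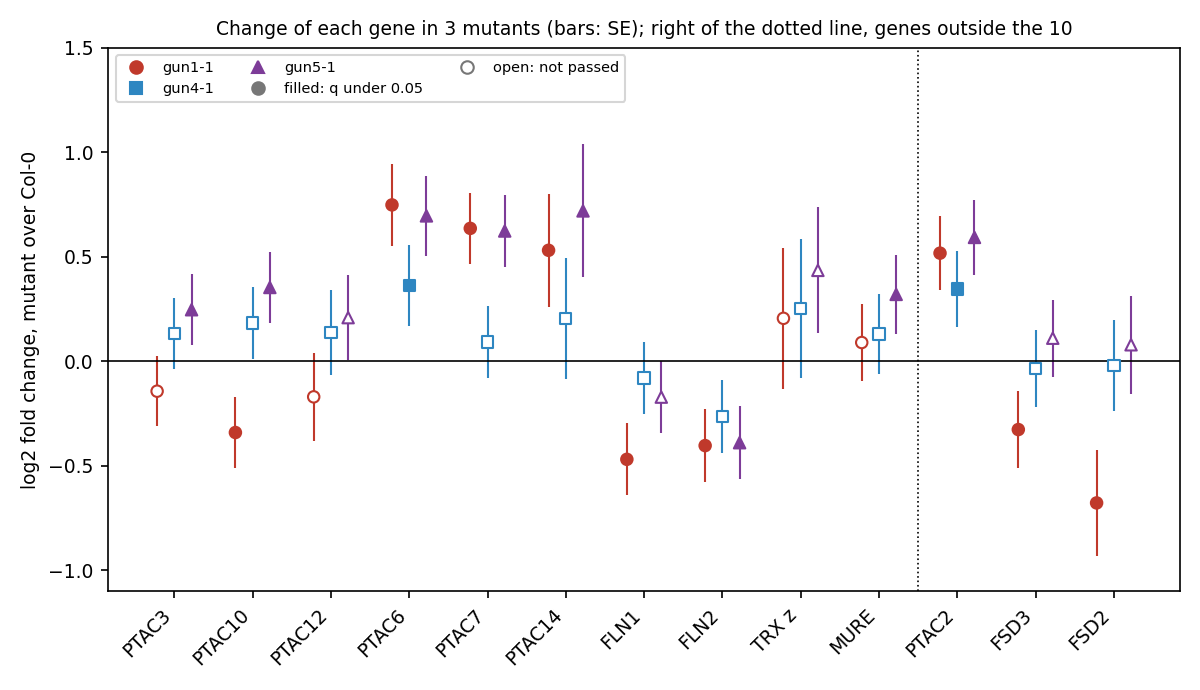
Log2 fold change of each gene in gun1-1, gun4-1 and gun5-1 over Col-0, with bars of 1 SE; filled points have the authors' q under 0.05. Left of the dotted line are the 10 genes, right of it the 3 other associated proteins; PTAC6 is filled in every mutant, and PTAC10 lies below 0 in gun1-1 (-0.34) and above 0 in gun5-1 (0.35).

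The first group by role are proteins with domains linked to nucleic acid binding or with a second place of work in the nucleus. PTAC3 (AT3G04260; chromosome 3, 1122948 to 1127581, in the files' coordinates, minus strand, 13 exons) carries a SAP domain, a putative DNA-binding fold. It was at 40.8 FPKM in gun1-1, 49.4 in gun4-1, 53.4 in gun5-1 and 45.04 in Col-0, so that only gun1-1 lay below the wild type. In the authors' deposited tables its log2 fold change was -0.14 (SE 0.17, q = 0.302), 0.13 (SE 0.17, q = 0.479) and 0.25 (SE 0.17, q = 0.0473), and only the gun5-1 value passed, close to the threshold.

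PTAC10 (AT3G48500; chromosome 3, 17962080 to 17965723, plus strand, 11 or 12 exons) has an S1 RNA-binding domain. It was at 40.2 FPKM in gun1-1, 57.8 in gun4-1, 65.0 in gun5-1 and 50.9 in Col-0. It was the one member called in both directions: in the authors' deposited tables it fell by 0.34 in gun1-1 (SE 0.17, q = 0.0022) and rose by 0.35 in gun5-1 (SE 0.17, q = 0.00283). The gun4-1 value of 0.18 (SE 0.17, q = 0.287) did not pass. A second PTAC10 transcript stayed under 1 FPKM in every group and was untested.

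PTAC12, also called HEMERA (AT2G34640; chromosome 2, in the span 14578444 to 14584797, minus strand, 10 exons), is found in plastids and in the nucleus, where it takes part in phytochrome signalling. Its levels were 53.8 FPKM in gun1-1, 66.6 in gun4-1, 70.0 in gun5-1 and 60.5 in Col-0, a spread of values like that of PTAC3. None passed: the authors' deposited tables give -0.17 (SE 0.21, q = 0.328), 0.14 (SE 0.20, q = 0.56) and 0.21 (SE 0.20, q = 0.192). PTAC12 and PTAC3 were each other's nearest member by Euclidean distance over the 3 log2 fold changes, at 0.05. RefSeq places GPS1 (AT2G34630), on the other strand, overlapping PTAC12.

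PTAC6 (AT1G21600; chromosome 1, in the span 7570845 to 7578963 that overlaps AT1G21610, minus strand, 6 or 7 exons) is an associated protein also found in the nucleus and needed for greening. It was at 121.8 FPKM in gun1-1, 93.2 in gun4-1, 117.5 in gun5-1 and 72.5 in Col-0, so each mutant lay above the wild type. It was the one member called in every comparison: in the authors' deposited tables it rose by 0.75 in gun1-1 (SE 0.20, q = 3.76e-04), by 0.36 in gun4-1 (SE 0.19, q = 0.0135) and by 0.70 in gun5-1 (SE 0.19, q = 4.20e-04). On the linear scale these are 1.68-fold, 1.29-fold and 1.62-fold. It overlaps AT1G21610, a gene of the opposite strand; whether the libraries keep strand is not given in the sources used here.

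PTAC7 (AT5G24314; chromosome 5, in the span 8277700 to 8279969, plus strand, 4 exons) is an associated protein needed for plastid transcription, and its upstream bases are printed above. Its 316.4 FPKM in gun1-1 and 313.7 in gun5-1 stood apart from 217.1 in gun4-1 and 203.6 in Col-0. By the authors' deposited tables it rose by 0.64 in gun1-1 (SE 0.17, q = 3.76e-04) and by 0.62 in gun5-1 (SE 0.17, q = 4.20e-04), and gave 0.09 in gun4-1 (SE 0.17, q = 0.662). It supplied 38.6% of the summed FPKM of the 10 genes in gun1-1, 29.1% in gun4-1, 34.7% in gun5-1 and 29.4% in Col-0. RefSeq places AT5G24316, on the opposite strand, overlapping it.

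PTAC14 (AT4G20130; chromosome 4, in the span 10875233 to 10882052 that overlaps AT4G20110, plus strand, 9 to 12 exons) has a SET domain, the fold of lysine methyltransferases. It was the member with several well-expressed transcripts, 3 of the 5 listed. The leading one was at 45.3 FPKM in gun1-1, 36.1 in gun4-1, 51.6 in gun5-1 and 31.3 in Col-0. In the authors' deposited tables it rose by 0.53 in gun1-1 (SE 0.27, q = 0.00408) and by 0.72 in gun5-1 (SE 0.32, q = 0.00185), with 0.20 in gun4-1 (SE 0.29, q = 0.542).

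For the other expressed PTAC14 transcripts, different ones passed in different mutants. In the authors' deposited table for gun1-1 the second was at 20.6 FPKM in the mutant and 20.9 in Col-0 (log2 fold change -0.02, SE 0.45, q = 0.965). There the transcript ranked 3 was at 13.1 in gun1-1 and 6.04 in Col-0, a rise of 1.11 (SE 0.62, q = 0.0193). The authors' deposited table for gun5-1 gives 38.0 FPKM in the mutant and 20.6 in Col-0 for the second, a rise of 0.89 (SE 0.52, q = 0.0166). For the one ranked 3 it gives 4.95 in gun5-1 and 5.95 in Col-0 (-0.27, q = 0.807), with a wide SE of 2.29. Neither passed in the authors' deposited table for gun4-1, with 0.25 (SE 0.41, q = 0.605) for the second and -1.33 (SE 2.27, q = 0.582) for the one ranked 3. The second transcript made up 26.1% of the gene's summed FPKM in gun1-1, 39.1% in gun4-1, 40.5% in gun5-1 and 35.9% in Col-0. The difference between transcripts was not tested, and short reads are divided among overlapping transcripts by estimation. With all transcripts summed, the log2 fold change was 0.44 in gun1-1, 0.12 in gun4-1 and 0.71 in gun5-1. The files group PTAC14 with the neighbouring gene AT4G20110.

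**Figure D3:**
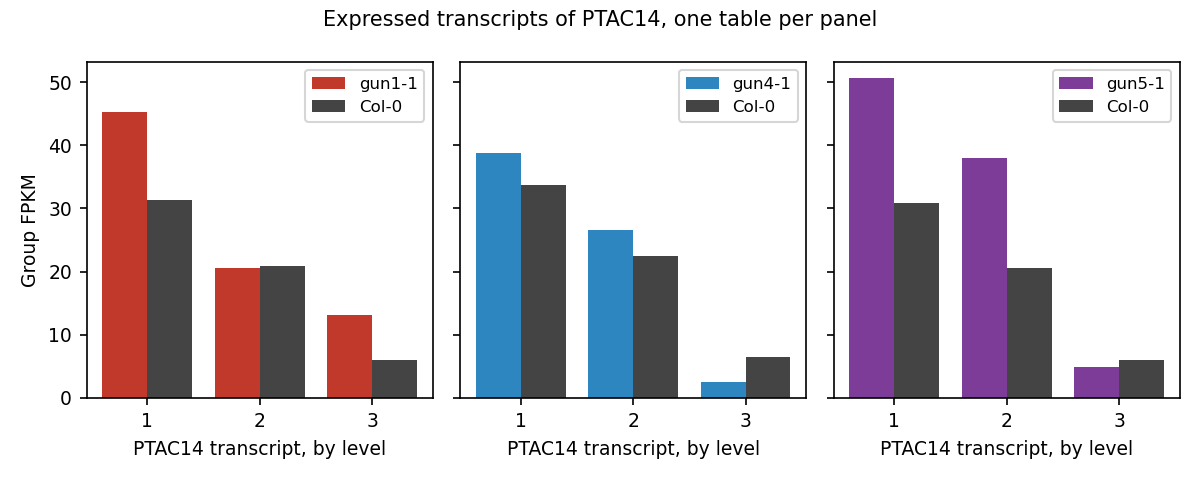
Group FPKM of the 3 expressed PTAC14 transcripts, ordered by level, in each mutant (left bar) and Col-0 (right bar), one deposited table per panel and no error available. The second transcript is at 20.6 FPKM in gun1-1 and 20.9 in Col-0, and at 38.0 in gun5-1 and 20.6 in Col-0.

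FLN1 and FLN2 are related proteins of the fructokinase-like family, which resemble sugar kinases, and FLN2 binds TRX z. FLN1 (AT3G54090; chromosome 3, 20028052 to 20030055, plus strand, 2 exons) was at 55.3 FPKM in gun1-1, 72.5 in gun4-1, 68.0 in gun5-1 and 76.5 in Col-0. FLN2 (AT1G69200; chromosome 1, 26016024 to 26018365, plus strand, 5 exons) was at 48.4 in gun1-1, 53.3 in gun4-1, 48.9 in gun5-1 and 64.1 in Col-0. For both, every mutant lay below the wild type, which holds for no other member.

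In the authors' deposited tables FLN1 fell by 0.47 in gun1-1 (SE 0.17, q = 3.76e-04), with -0.08 in gun4-1 (SE 0.17, q = 0.722) and -0.17 in gun5-1 (SE 0.17, q = 0.22). FLN2 fell by 0.40 in gun1-1 (SE 0.17, q = 3.76e-04) and by 0.39 in gun5-1 (SE 0.18, q = 8.02e-04), and gave -0.26 in gun4-1 (SE 0.17, q = 0.0706), by the same deposited tables of the authors. The pair were each other's nearest member by the same distance, 0.29. Ratios within a genotype were taken from the levels on the Col-0 scale of the gun1-1 table. PTAC7 over FLN1 was 5.72 in gun1-1, 2.997 in gun4-1, 4.61 in gun5-1 and 2.66 in Col-0. PTAC6 over FLN1 was 2.20 in gun1-1, 1.29 in gun4-1, 1.73 in gun5-1 and 0.948 in Col-0, while FLN1 over FLN2 was 1.14, 1.36, 1.39 and 1.19 in that order. These pairs were picked after their changes were seen, so the ratios are descriptions.

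TRX z (AT3G06730; chromosome 3, in the span 2120324 to 2126156 that overlaps AT3G06720, plus strand, 4 exons) is a plastid thioredoxin, a small redox protein. It was at 67.2 FPKM in gun1-1, 69.4 in gun4-1, 78.8 in gun5-1 and 58.3 in Col-0. No value passed: the authors' deposited tables give 0.21 (SE 0.34, q = 0.474), 0.25 (SE 0.33, q = 0.50) and 0.44 (SE 0.30, q = 0.0522), the last just outside the threshold. TRX z over FLN2 was 1.39 in gun1-1, 1.30 in gun4-1, 1.61 in gun5-1 and 0.910 in Col-0. The files group TRX z with IMPA-1 (AT3G06720), an importin gene of the same strand that overlaps it, and its SE was the widest of the 10 in gun1-1 and gun4-1.

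MURE (AT1G63680; chromosome 1, 23614340 to 23617912, plus strand, 5 or 6 exons) resembles bacterial MurE ligases of cell wall synthesis. In the authors' deposited tables it rose by 0.32 in gun5-1 (SE 0.19, q = 0.0155) and gave 0.09 in gun1-1 (SE 0.18, q = 0.581) and 0.13 in gun4-1 (SE 0.19, q = 0.557). TRX z was its nearest member, at a distance of 0.20, and 2 further MURE transcripts, at most 1.33 FPKM, were untested. The summed FPKM of the 10 genes was 820 in gun1-1, 747 in gun4-1, 903 in gun5-1 and 692 in Col-0, which is 1.19, 1.08 and 1.31 times Col-0 in the mutants. PTAC7 weighs most in this sum: it alone went from 203.6 FPKM in Col-0 to 316.4 in gun1-1, where the median log2 fold change of the 10 was -0.03.

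Whether a change differs between mutants was tested from the difference of the 2 log2 fold changes, set against their combined SE. The p is two-sided, from the normal distribution, and was adjusted over every gene tested in both tables (Benjamini-Hochberg). At adjusted p under 0.05, 0 of the 10 genes differed in each of the 3 pairs of mutants, where 6.19% of all genes did for gun1-1 against gun4-1, 1.71% for gun1-1 against gun5-1 and 2.79% for gun5-1 against gun4-1. At an unadjusted p under 0.05 the counts were 2, 1 and 1 of 10, where 14.1%, 7.16% and 9.04% of all genes passed. The authors' deposited tables list no errors, so the SE, differences, intervals and adjusted p that follow were worked out here. From the authors' deposited statistics, PTAC10 gave a log2 difference of -0.69 for gun1-1 over gun5-1 (95% interval -1.17 to -0.22, adjusted p = 0.162). From the authors' deposited statistics, PTAC7 gave 0.54 for gun1-1 over gun4-1 (0.07 to 1.02, adjusted p = 0.225). Its value from the authors' deposited statistics was 0.53 for gun5-1 over gun4-1 (0.05 to 1.01, adjusted p = 0.402). With SE from the authors' deposited statistics, PTAC10 gave -0.52 for gun1-1 over gun4-1 (-1.002 to -0.05, adjusted p = 0.27).

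With the SE taken from the authors' p-value instead, 2, 1 and 0 of the 10 passed, against 18.4%, 5.95% and 7.22% of all genes: PTAC10 in gun1-1 against gun5-1 (adjusted p = 7.70e-05), and PTAC10 (adjusted p = 0.0025) and PTAC7 (adjusted p = 0.0247) in gun1-1 against gun4-1. For PTAC6 the interval of gun1-1 over gun5-1 ran from -0.49 to 0.59, and for FLN2 from -0.50 to 0.47. These intervals do not show that the 2 mutants act alike on either gene.

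**Figure D4:**
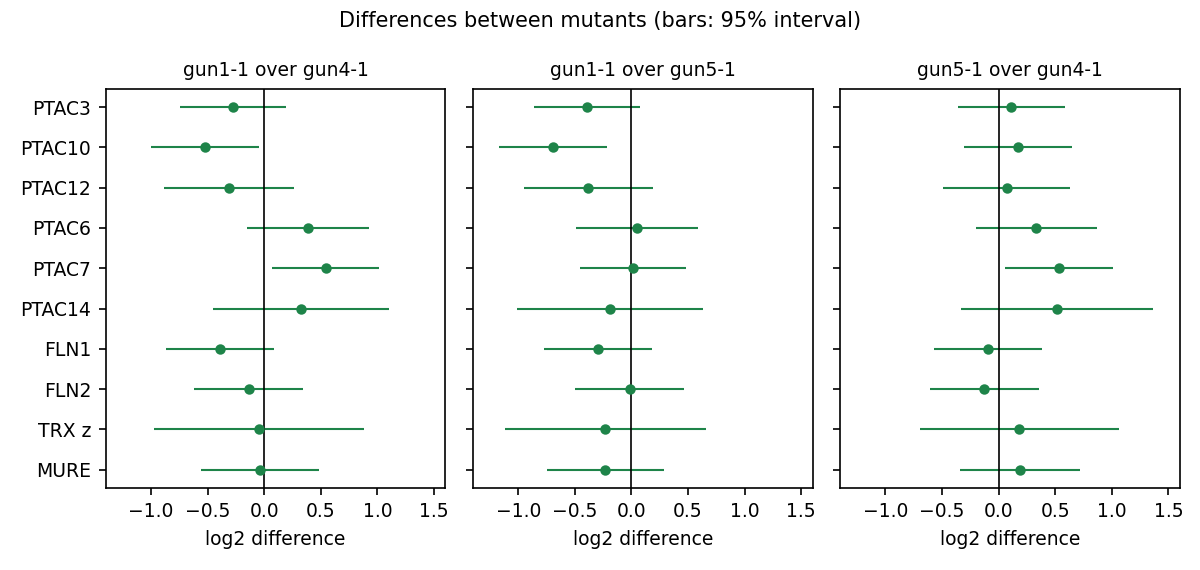
Log2 difference between mutants for each of the 10 genes, with 95% intervals from the combined SE; a point right of 0 is higher in the mutant named first. PTAC10 lies farthest left in gun1-1 over gun5-1, at -0.69, and 0 of 10 differences pass adjustment over all genes in any panel.

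Of the 3 other proteins of the complex, PTAC2, a pentatricopeptide repeat protein, rose in every mutant in the authors' deposited tables, by 0.52 in gun1-1 (SE 0.18), 0.35 in gun4-1 (SE 0.18) and 0.59 in gun5-1 (SE 0.18). The iron superoxide dismutases FSD3 and FSD2 fell in gun1-1 by 0.33 (SE 0.19, q = 0.0109) and 0.68 (SE 0.25, q = 3.76e-04), by the same deposited tables of the authors, and passed in neither gun4-1 nor gun5-1. FSD2 was at 37.65 FPKM in gun1-1 and 60.2 in Col-0.

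A further list of 6 genes held proteins linked to assembly or regulation of the polymerase, and the nucleoid-binding MFP1. Of these, 2 were higher in gun1-1, 1 in gun4-1 (MFP1) and 3 in gun5-1, and 0 were lower. Over all tested genes, 18.7%, 8.21% and 16.4% were higher. MFP1, a thylakoid protein that binds nucleoid DNA, rose by 1.39, 0.80 and 1.30 in the authors' deposited tables (SE 0.18, 0.19 and 0.19). PTAC15 rose by 1.17 in gun1-1 (SE 0.22) and by 0.996 in gun5-1 (SE 0.23) in the authors' deposited tables. PTAC13 passed only in gun5-1, close to the threshold, with a rise of 0.82 (SE 0.53, q = 0.0419) in the authors' deposited table. RCB and NCP, which promote assembly of the polymerase in phytochrome signalling, passed in no mutant, with values from -0.31 to 0.09. Sigma factors were higher in 6 of 6 cases in gun1-1, 1 of 6 in gun4-1 and 6 of 6 in gun5-1, with median changes of 1.003, 0.19 and 1.07; the 10 associated genes had -0.03, 0.14 and 0.34. Of the 2 phage-type polymerase genes, RPOTMP was lower in every mutant, by 0.93, 1.13 and 1.03 (SE 0.32, 0.35 and 0.33) in the authors' deposited tables. Its level was low, at 2.83 FPKM in gun1-1 and 5.41 in Col-0 of that table, 2.65 in gun4-1 and 2.61 in gun5-1. RPOTP fell by 0.43 in gun4-1 (SE 0.19, q = 0.00103) in the authors' deposited tables, and gave -0.08 in gun1-1 (SE 0.18, q = 0.637) and -0.12 in gun5-1 (SE 0.19, q = 0.48).

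The 4 plastid genes of the polymerase core were all lower in gun1-1 and all higher in gun4-1 and gun5-1. Over all tested genes, 15.0% were lower in gun1-1, and 8.21% and 16.4% were higher in gun4-1 and gun5-1. In the authors' deposited tables rpoB was at 1.55 FPKM in gun1-1 and 6.12 in Col-0, a fall by 1.98 (SE 0.32), and rose by 1.602 in gun4-1 (SE 0.21) and by 2.22 in gun5-1 (SE 0.21). The medians of the 4 were -1.82 in gun1-1, 1.92 in gun4-1 and 2.08 in gun5-1, and the differences of gun1-1 from each other mutant passed for all 4, with adjusted p of at most 9.76e-05. Levels in the gun1-1 table were low for rpoC1 (0.992 FPKM in gun1-1, 2.01 in Col-0) and rpoC2 (0.356 and 1.29), while rpoA was at 54.4 and 187. Of 10 plastid photosynthesis genes, 9 were lower in gun1-1, and 9 were higher in gun4-1 and in gun5-1, with medians of -1.72, 2.05 and 2.17. Some of these were also low, such as psaA (0.342 FPKM in gun1-1, 1.53 in Col-0) and psaB (0.300 and 1.28). Libraries were made from mRNA picked by oligo(dT), and its part in the plastid gene values was not tested. Single changes of the 10 nuclear genes stayed within -0.47 to 0.75 in gun1-1, -0.26 to 0.36 in gun4-1 and -0.39 to 0.72 in gun5-1.

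**Figure D5:**
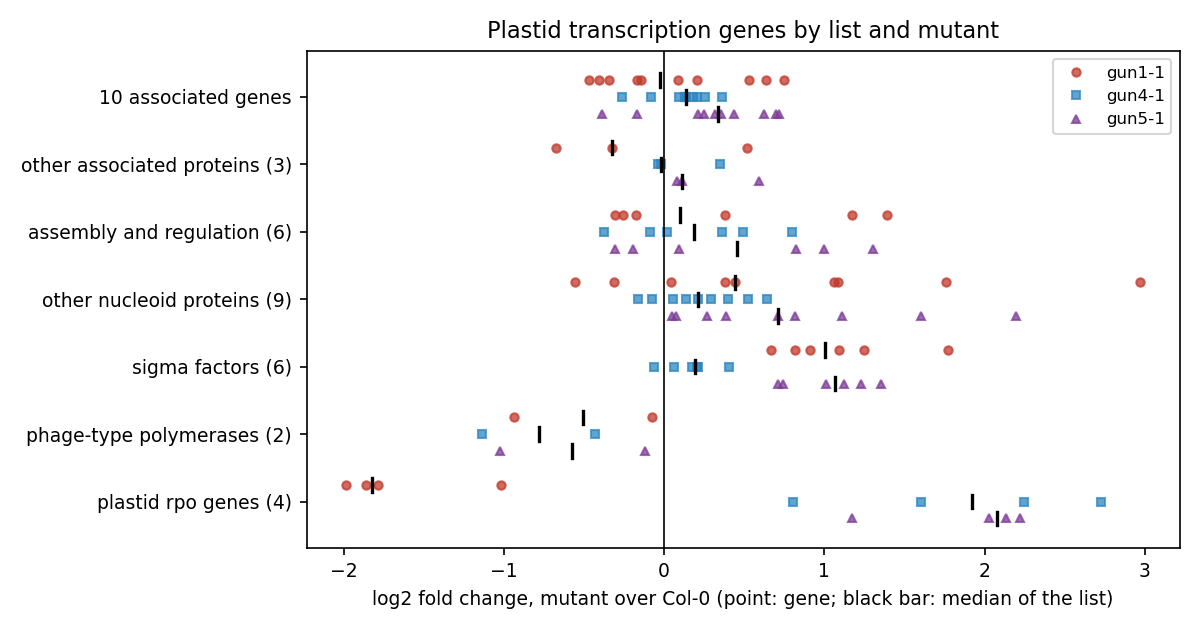
Log2 fold change over Col-0 of each gene (points) and the list median (black bars) for the 10 associated genes and 6 further lists of plastid transcription genes, in gun1-1, gun4-1 and gun5-1. The rpo medians are -1.82, 1.92 and 2.08, while the medians of the 10 genes are -0.03, 0.14 and 0.34.

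Genes taken as markers of seedling parts moved as well. The leaf markers are also nuclear genes of photosynthesis, the class that these mutants keep active. Their rise cannot be told apart here from a change in the amount of leaf. The 3 leaf markers RBCS1A, LHCB1.1 and CA1 were higher in gun1-1 and gun5-1 (3 of 3 each). In gun4-1, 2 of 3 were higher. The 3 root hair markers COBL9, EXPA7 and RSL4 were lower in 3, 2 and 2 of 3 cases in gun1-1, gun4-1 and gun5-1. Over all tested genes, 18.7%, 8.21% and 16.4% were higher in gun1-1, gun4-1 and gun5-1, and 15.0%, 5.92% and 13.1% were lower. Of the seed markers CRA1, SESA3 and EM1, 3 were lower in gun1-1, 1 was lower in gun4-1 and 1 was higher in gun5-1. Leaf marker changes ran from 1.31 to 7.70 in gun1-1, 0.46 to 4.61 in gun4-1 and 1.602 to 7.54 in gun5-1, and root hair marker changes from -0.57 to -0.36, -0.60 to -0.16 and -0.49 to -0.10. Seed marker changes ran from -2.44 to -1.64 in gun1-1, -4.86 to -2.49 in gun4-1 and -2.93 to 0.94 in gun5-1. The 2 seed markers that did not pass in gun4-1, and the 2 in gun5-1, all had values below 0. Every marker had an FPKM above 0 in every group, but some seed marker values were low or uncertain. In the authors' deposited table EM1, the low end of the gun4-1 range, was at 0.386 FPKM in gun4-1 and 11.2 in Col-0 (-4.86, SE 3.64, q = 0.495). CRA1 in gun4-1 gave -4.14 (SE 1.97, q = 0.194). The part of the markers in the changes of the 10 genes was not tested.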

How the data were processed

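RNA sequencing libraries were processed by the authors with Trimmomatic, TopHat, Cufflinks and Cuffdiff, per the submitters' processing notes; their versions, the build and the annotation are not stated in what was used here. Each of 3 deposited tables gives, per transcript, group FPKM values (scaled by the authors within a table), a log2 fold change, a test score and a p-value and q-value. Per the file headers, Col-0 is the denominator of the log2 fold change. Of the spans of single genes in the files, 21883 of 29504 have the same start and end as in RefSeq's TAIR10.1 annotation. Coordinates printed for genes are the files' spans, with 1 added to the start. For PTAC6, PTAC7, PTAC12, PTAC14 and TRX z the span differs from RefSeq's gene and overlaps another gene, so it does not give the gene's own ends.

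Each gene was represented by its transcript of highest mean FPKM. Relative to the gun1-1 table, Col-0 levels were 1.07 times as high in that of gun4-1 and 0.984 times in that of gun5-1. The test of differences between mutants treats the shared Col-0 as independent, which makes its SE too large rather than too small. With no values per library, replicates could not be refitted, and p-values rest on the authors' pooled groups. Alternatives were a q-value under 0.01, a minimum of 5 FPKM, a pseudocount of 1 FPKM, summed transcripts, centring and other SE. The members and lists were chosen with earlier results of these data known, and lists are described by counts and medians only. Named genes were every member, the 3 other associated proteins, and of further lists up to 4 genes by size of the called change, plus RCB, NCP, WHY1 and PTAC18, named after their values were seen. Upstream stretches were to be shown for the member with the largest change, PTAC6, but that window lies inside another gene, so PTAC7 is shown instead. A planned comparison of FLN1 and FLN2 protein sequences was not made. Python 3.11.15, NumPy 2.4.6, pandas 2.3.3, SciPy 1.17.1 and Matplotlib 3.10.9 were used.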

Additional observations from a re-analysis of the deposited data

How the results depend on the processing

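Of the counts and medians for the 10 genes, 29 kept their value within 1.5 times, or moved by less than the median SE, under the alternatives tried. The exceptions were these. In gun4-1 the count of 1 called gene became 0 with a q-value under 0.01 and 2 when genes under 5 FPKM were left out and p-values adjusted again, FLN2 joining PTAC6 (adjusted p = 0.0468 from the authors' deposited p). With the SE from the deposited p-value, 2 genes in place of 0 differed between gun1-1 and gun4-1, and 1 in place of 0 between gun1-1 and gun5-1. The SE from the p-value was smaller for each of these genes, and the main SE is the larger one except at the smallest p. Among single genes, 290 of the repeated values counted as unchanged. These kept their call and direction or, where only the fold change was recomputed, kept direction and moved by less than their SE. Of the others, 1 reversed, 3 lost a call and 6 became called. Some of the unchanged values had little or no room to change. For the 10 genes the SE from the deposited statistic is the main SE, so those 30 repeats differ only in the adjustment over all genes. An uncalled gene cannot lose a call at the stricter q-value. The uncalled difference of PTAC7 for gun1-1 over gun5-1, 0.0127, reversed to -0.00105 on centring. PTAC3 and MURE in gun5-1 and PTAC6 in gun4-1 missed a q-value of 0.01, and TRX z in gun5-1 passed with the authors' deposited p adjusted over 1 transcript per gene (adjusted p = 0.0412) or with the FPKM minimum (adjusted p = 0.0342). Centring on the median of expressed genes moved changes by 0.04, 0.01 and 0.03 in gun1-1, gun4-1 and gun5-1. No paired analysis was possible because the tables hold group values only, and for the same reason no replicate could be left out. Depth is unknown.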

Other observations

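Other proteins found with the transcriptionally active plastid chromosome form a list of 9 genes. Of these, 6 were higher and 2 lower in gun1-1, 3 were higher in gun4-1 and 6 were higher in gun5-1. Over all tested genes, 18.7% were higher and 15.0% lower in gun1-1, 8.21% were higher in gun4-1 and 16.4% were higher in gun5-1. CURT1B, a thylakoid curvature protein, rose in the authors' deposited tables by 2.97 in gun1-1 (SE 0.29) and by 2.19 in gun5-1 (SE 0.31), and gave 0.53 in gun4-1 (SE 0.35, q = 0.077). PTAC16 rose by 1.76, 0.64 and 1.605 in gun1-1, gun4-1 and gun5-1 in the authors' deposited tables (SE 0.17 each). VIPP1, which maintains thylakoid membranes, rose by 1.09, 0.29 and 1.11 (SE 0.17 each) in the authors' deposited tables. PTAC5 rose by 1.06 in gun1-1 and by 0.815 in gun5-1 (SE 0.20 each) in the authors' deposited tables, with 0.14 in gun4-1 (SE 0.21, q = 0.575). The 2 that were lower in gun1-1, named after their values were seen, were WHY1, a single-stranded DNA-binding protein (a fall by 0.55, SE 0.21), and PTAC18 (a fall by 0.31, SE 0.21, q = 0.0458), by the authors' deposited table.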
